A study of Homo sapiens with 60 samples.

Results

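The comparison set osimertinib-treated wild-type PC9 cells against untreated wild-type PC9 cells by their H3K27Ac peaks. It used 4 of the 60 samples of the study, 2 replicates per group, and each group's replicates had been joined by the authors in 1 peak list. PC9 is a human lung adenocarcinoma line whose growth depends on an activating EGFR mutation, and osimertinib is an EGFR kinase inhibitor. Per the labels, its dose was raised over 6 to 8 weeks from a start of 100 nM. Both groups were wild type (WT) and carried no knockout or transgene; how long the untreated cells were kept, whether either population was cloned and whether drug was present at harvest are not given in the labels. Treatment and time in culture therefore cannot be told apart. The study, which asks how chromatin states prepare lung cancer cells for drug resistance and oncogene amplification, also has cells without METTL7A (KO) and KO cells given a tagged METTL7A transgene that overexpresses it (Rescue), with the same drug arms. Its assay was CUT&RUN, which cleaves chromatin next to a bound antibody and sequences the fragments that are released.

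H3K27Ac, acetylation of lysine 27 of histone H3, is deposited by p300 and CBP and marks nucleosomes at active promoters and enhancers. Broad or closely spaced H3K27Ac peaks are a known feature of strong enhancers near genes of cell identity. RAD21 is a core subunit of cohesin, the ring complex that forms chromatin loops, and PDS5A is a regulator that binds cohesin and affects how long it stays on DNA. IgG is the nonspecific antibody that shows where CUT&RUN gives signal without a target.

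A peak was counted when it lay on chromosomes 1 to 22 and had a global irreproducible discovery rate (IDR, a measure of how well a peak's rank is shared by its replicates) of 0.05 or less. By this rule treated WT cells had 10077 peaks and untreated WT cells had 5045, out of 56093 in the 6 H3K27Ac lists of the series. The authors' files are not limited by IDR: on the same chromosomes they held 43401 deposited entries for treated and 22245 for untreated WT cells, so 23.2% and 22.7% of entries were within the limit. A treated peak was called gained when it shared no base with an untreated peak, an untreated peak was called lost when it shared no base with a treated peak, and all others were called kept. Gained and lost peaks were each split by whether the other list held any deposited entry at the position, whatever its IDR. With 1 list per group there is no replicate of a list and no test of the difference between groups; the 95% Wilson intervals given cover counting error only. No label says that the replicates came from separate cultures, and the files do not say which labelled replicate is the first or the second value of a peak.

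Treated WT cells had 2.0 times the peaks of untreated WT cells, and the added peaks covered more of the genome. Treated peaks covered 19.2 Mb and untreated peaks 8.99 Mb, with median widths of 1677 bp and 1583 bp. The median distance to the next peak of the same list was 26.6 kb in treated and 53.4 kb in untreated WT cells. The number of reads per library is not in the files, so the depth behind the lists is unknown. The IgG list of WT cells was also longer, with 7509 deposited entries in treated cells against 1042 in untreated cells, and the part of this in the longer H3K27Ac list was not tested. The replicates of the lists were unequal: the median −log10 p was 16.5 in the first and 23.6 in the second replicate of treated cells, and 21.7 in the first and 19.4 in the second replicate of untreated cells. The second replicate had the higher value at 89.0% of treated and 39.3% of untreated peaks. The lower of both values was therefore used to order peaks within a list. It was at least 9.89 for treated and 12.3 for untreated peaks, and reached 78.8 and 165.8.

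Most treated peaks were gained, but most gained peaks stood where untreated cells had an entry over the IDR limit. Of the 10077 treated peaks, 6892 were gained (68.4%, 95% interval 67.5 to 69.3) and 3185 were kept. At 4377 gained peaks the untreated list held an entry over the IDR limit, and at 2515 it held none, which is 25.0% of all treated peaks (24.1 to 25.8). Of the 5045 untreated peaks, 1863 were lost (36.9%, 35.6 to 38.3) and 3182 were kept. The lost share was 15.7% over every deposited entry, 55.1% at an IDR of 0.01 and 56.1% with lists of equal length, and the share of treated peaks gained without an untreated entry was 12.4% at an IDR of 0.01 and 15.7% with equal lengths. The treated list held an entry over the limit at 1753 of the lost peaks and none at 110, or 2.18% of all untreated peaks (1.81 to 2.62). Complete absence from the other list was thus more frequent among treated than among untreated peaks, and the treated list was also the longer one against which untreated peaks were looked up. Equal lengths do not remove this inequality. That setting shortened the treated peaks but not the deposited entries looked up, and the 2.18% was unchanged by it. Peaks on both sides of the IDR limit had like strengths: among the 100 peaks just within it and the 100 entries just beyond it, the median lower −log10 p was 10.4 and 10.4 in treated cells, and 12.5 and 12.5 in untreated cells. The IDR is itself computed from replicate ranks, so entries next to the limit are alike largely by construction. This match therefore describes the limit and tests nothing.

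Gained peaks were mostly less frequent among stronger peaks and still made up a large share of the strongest treated peaks. In the weakest decile of the treated list 85.2% of peaks were gained, and 42.3% had no untreated entry. In the strongest decile, with lower −log10 p from 26.8 to 78.8, 38.9% were gained (36.0 to 42.0) and 8.84% had no untreated entry. Lost peaks made up 52.5% of the weakest and 26.4% of the strongest decile of the untreated list. The strongest untreated decile held 2 peaks without any treated entry, whereas the strongest treated decile held 89 without any untreated entry.

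**Figure D1:**
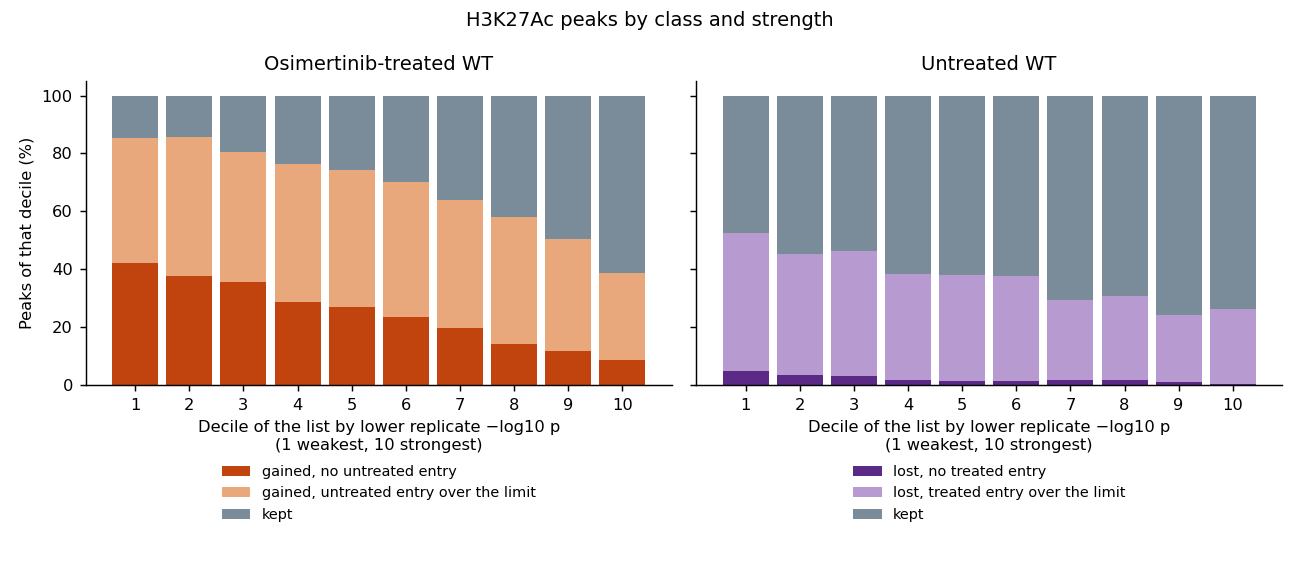
Share of peaks in each class (y axis, percent) by decile of the list ordered by the lower replicate −log10 p (x axis, 1 weakest and 10 strongest), for treated WT on the left and untreated WT on the right. Gained peaks fall to 38.9% in the strongest treated decile, against 85.2% in the weakest, and the dark band of peaks without an untreated entry narrows to 8.84% there.

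The classes differed in width and rank within each list. In treated cells the median width was 1339 bp for gained peaks without an untreated entry, 1673 bp for gained peaks with one and 1925 bp for kept peaks. Their median rank percentiles in the treated list, where 100 is the strongest, were 34.0, 44.6 and 69.0. Untreated peaks without a treated entry had a median width of 1066.5 bp, those with one 1571 bp and kept peaks 1606 bp, at median ranks of 29.7, 41.3 and 55.6 in the untreated list. Peaks of 4 kb or wider were nevertheless present among the gained ones. In the treated list 254 gained (3.69%) and 204 kept peaks (6.41%) reached this width, against 4.55% of all treated peaks. In the untreated list 49 lost (2.63%) and 96 kept peaks (3.02%) did. None of the 110 lost peaks that lacked a treated entry was that wide, against 2.87% of all untreated peaks.

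**Figure D2:**
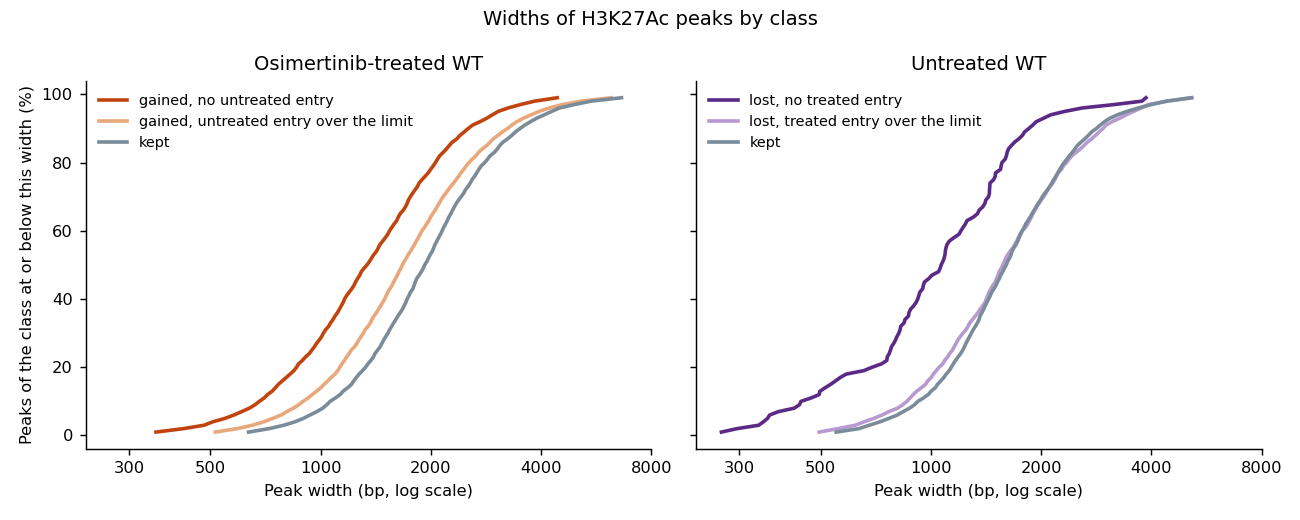
Cumulative share of peaks (y axis, percent) at or below a width (x axis, bp on a log scale) for each class, with treated WT on the left and untreated WT on the right. The curve of gained peaks without an untreated entry crosses 50% at 1339 bp, left of the kept peaks at 1925 bp, and lost peaks without a treated entry cross it at 1066.5 bp, against 1606 bp for kept untreated peaks.

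Kept peaks were mostly wider in treated cells. The 3185 treated and 3182 untreated kept peaks formed 3224 overlapping pairs, and the treated peak was the wider one in 71.6% of them (70.0 to 73.1). The median ratio of treated to untreated width was 1.15, with quartiles of 0.975 and 1.45. At least a doubling of width was found in 308 pairs in favour of the treated peak and in 80 pairs in favour of the untreated peak. The replicates differed in width as well: with each replicate's own boundaries the median ratio over the 4 pairings of a treated with an untreated replicate lay between 1.07 and 1.25, while the second replicate was 1.10 times as wide as the first in treated cells and 1.03 times in untreated cells.

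The order of strength among kept peaks differed more between the groups than between replicates. Ranked only among the 3224 pairs, so that both sides had the same length, the lower −log10 p of treated and untreated peaks had a Spearman rho of 0.333, as a description over peaks of these lists. The 4 pairings of a treated with an untreated replicate gave 0.296 to 0.342. Between replicates of a group rho was 0.570 in treated and 0.633 in untreated cells, although an IDR limit itself selects peaks whose replicates share their rank. The median shift in rank was 21.6 percentile points between the groups, against 16.998 points between treated replicates and 15.6 points between untreated replicates. In 43 pairs the treated peak ranked at least 50 points higher in all 4 replicate pairings, and in 40 pairs at least 50 points lower. Ranking both sides among the same pairs balances rises and falls, so these counts carry no direction.

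The 5 strongest kept peaks of treated cells ranked high in untreated cells too, with 1 exception, and all 5 met an IgG entry of WT cells. Of all kept treated peaks, 54.0% met a treated and 10.1% an untreated WT IgG entry. A peak on chromosome 17 spanning 38803504 to 38805402 (GRCh37, as all positions here) had −log10 p values of 78.8 and 83.7 in the 2 treated replicates, and its counterpart had 101.8 and 78.9 in the 2 untreated replicates. On chromosome 20, the peak spanning 52824235 to 52825896 had 73.4 and 75.3 in treated replicates and 145.9 and 111.7 in untreated replicates, and on chromosome 7 the peak spanning 16459555 to 16462108 had 71.5 and 94.0 in treated and 109.8 and 90.3 in untreated replicates. Each of these ranked at or above percentile 99.58 of both lists, as did a peak on chromosome 2 spanning 183901261 to 183903948. Values of different lists are not on a shared scale, so ranks are given beside them. A list rank also depends on which other peaks the list holds. Kept peaks as a whole had median ranks of 69.0 in the treated and 55.6 in the untreated list. The exception, also on chromosome 2 and spanning 225349405 to 225351978, had 65.9 and 81.5 in treated replicates, at percentile 99.95, and 24.5 and 46.7 in untreated replicates, at percentile 77.1.

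In the largest shifts in list rank, taken in the full lists of unequal length, the replicates of 1 group often differed. The 5 kept peaks with the largest rise stood at percentiles 94.2 to 98.8 of the treated list and 0.198 to 3.73 of the untreated list. In all 5 the second untreated replicate set the low rank, at percentiles 0.159 to 2.74, while the first untreated replicate stood at 17.5 to 44.4, also below both treated replicates. An example on chromosome 1, spanning 59611869 to 59613995, had 40.5 and 57.1 in treated replicates and 17.6 and 12.6 in untreated replicates, and was 2127 bp wide in treated and 976 bp in untreated cells. The 5 kept peaks with the largest fall stood at percentiles 2.203 to 6.93 of the treated list and 90.9 to 96.5 of the untreated list. In all 5 the first treated replicate set the low rank, and the second stood at percentiles 52.3 to 82.8. An example on chromosome 15, spanning 60684924 to 60691094, had 10.3 and 28.2 in treated replicates and 44.3 and 44.6 in untreated replicates, and was 6171 bp wide in treated and 2288 bp in untreated cells.

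Several gained peaks without an untreated entry were among the strongest of the treated list. The 8 strongest that also met no IgG entry of any list ranked at percentiles 98.2 to 99.9. The highest, on chromosome 5 with bases 29795968 to 29796823, had −log10 p values of 60.8 and 92.5 in the 2 treated replicates and was 856 bp wide. It lay 2376.5 kb from the nearest untreated peak, carried neither RAD21 nor PDS5A in WT cells, and was a peak in treated Rescue cells and an entry over the limit in treated KO cells. A peak on chromosome 2 spanning 121671190 to 121674494 had 45.4 and 88.3 in treated replicates, was 3305 bp wide, and carried peaks of RAD21 and PDS5A in treated but no entry of either in untreated WT cells. A peak on chromosome 18 spanning 13795881 to 13797132 had 43.8 and 49.3, and no other H3K27Ac list held an entry there. On chromosome 20, the peak spanning 33850810 to 33853186 had 42.9 and 46.1, with RAD21 and PDS5A peaks in treated cells. The other 4 were on chromosomes 9, 5, 1 and 3, with lower values of 38.4 to 39.2, and the one on chromosome 3, spanning 194290831 to 194295452, was 4622 bp wide. Of the 8, 7 overlapped a treated RAD21 entry and 0 overlapped an untreated RAD21 entry, beside 82.6% and 49.5% of all treated peaks and 63.8% and 11.7% of gained peaks without an untreated entry.

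The 8 strongest lost peaks with neither a treated nor an IgG entry ranked at percentiles 75.1 to 91.5 of the untreated list. The peak on chromosome 10 spanning 47152848 to 47153426 had 44.3 and 34.1 in the 2 untreated replicates, and was 579 bp wide. On chromosome 20, the peak spanning 52295707 to 52297140 had 41.6 and 30.4, and on chromosome 5 the peak spanning 2779534 to 2781233 had 30.1 and 56.3. Both were peaks in all 4 KO and Rescue lists, as was the peak on chromosome 10. The other 5, on chromosomes 7, 14, 12, 2 and 16, had lower values of 23.5 to 29.6, and each of the 8 had an H3K27Ac entry in all 4 KO and Rescue lists, as did 98.3% to 99.9% of all untreated peaks for each list taken alone.

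Gained peaks that had no untreated WT entry were mostly missing from the other genotypes at the IDR limit as well. Of these 2515 peaks, 6.72% overlapped a peak of treated KO cells and 11.1% a peak of treated Rescue cells, against 46.1% and 64.2% of gained peaks with an untreated entry and 72.9% and 81.3% of kept peaks. In untreated KO and Rescue cells the shares of gained peaks without an untreated entry were 0.954% and 13.0%, against 33.5% and 60.7% of all treated peaks. Against every deposited entry the shares of this class rose to 46.7% in treated KO, 44.5% in treated Rescue, 18.2% in untreated KO and 46.5% in untreated Rescue cells. Of all treated peaks, 84.9%, 84.5%, 72.6% and 85.9% met an entry of these lists, in the same order. In KO cells the share of the class was thus larger in the treated list of 38466 entries than in the untreated list of 23305. In Rescue cells it was 44.5% in the treated list of 44401 entries and 46.5% in the untreated list of 38691. No H3K27Ac entry of any of the 4 KO and Rescue lists met 940 of the 2515 peaks (37.4%, 35.5 to 39.3), whereas this held for 24 of the 4377 gained peaks with an untreated entry and for 0 of the 3185 kept peaks, with a Wilson upper bound of 0.120%. Those 940 peaks had a median width of 1251 bp and a median rank percentile of 30.4, and 20.3% lay on a treated RAD21 peak.

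At the IDR limit, lost peaks without a treated entry were found less often than untreated peaks as a whole in KO and treated Rescue cells. In untreated Rescue cells the shares were alike, and most of these lost peaks had an entry in each KO and Rescue list. Of the 110 lost peaks without a treated WT entry, 44.5% overlapped a peak of treated KO cells (35.6 to 53.9) and 65.5% a peak of treated Rescue cells (56.2 to 73.7), against 67.8% and 78.1% of all untreated peaks. Against every deposited entry these shares were 92.7% and 98.2%, against 99.2% and 99.6% of all untreated peaks. At the limit in untreated cells, the class had 39.1% (30.5 to 48.4) on KO and 80.9% (72.6 to 87.2) on Rescue peaks. The shares of all untreated peaks there were 63.5% and 81.5%.

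Cohesin was found at a larger share of kept than of gained peaks. In treated WT cells a RAD21 peak overlapped 41.0% of gained and 62.5% of kept peaks, a difference of −21.5 percentage points (−23.5 to −19.4), which was −7.89 points at an IDR of 0.01 or less. Within gained peaks the share was 25.8% (24.1 to 27.6) without an untreated entry and 49.8% (48.3 to 51.3) with one. PDS5A peaks of treated cells followed the same order, at 17.2%, 36.8% and 47.6% for gained peaks without an untreated entry, gained peaks with one, and kept peaks. Strength moved with these shares: RAD21 lay on 29.3%, 39.1% and 54.7% of the weakest, middle and strongest gained peaks in 3 equal parts. In the strongest part of each gained class RAD21 lay on 36.4% (33.2 to 39.7) of peaks without an untreated entry and on 60.6% (58.1 to 63.1) of those with one, against 52.1% (49.1 to 55.1) of the weakest and 71.0% of the strongest part of kept peaks. Median widths ran in the same order as the shares, at 1339, 1673 and 1925 bp for the 3 classes, and overlap was counted from 1 bp. The part of strength and of width in the difference between classes was not tested.

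Where H3K27Ac had no untreated entry, cohesin rarely had one either. Over every deposited entry, RAD21 of treated WT cells met 63.8% and RAD21 of untreated WT cells 11.7% of the gained peaks without an untreated H3K27Ac entry. For kept peaks these shares were 93.8% and 74.7%. PDS5A gave 52.1% in treated and 8.79% in untreated cells for gained peaks without an untreated entry, and 90.0% and 67.4% for kept peaks. The lost peaks without a treated entry were the only class of the 5 with a lower share in treated than in untreated cells, at 28.2% (20.6 to 37.2) and 37.3% (28.8 to 46.6) for RAD21 and 20.9% and 26.4% for PDS5A. The RAD21 intervals overlap, and at the IDR limit the RAD21 shares of this class were 11.8% in treated and 8.18% in untreated cells. The treated lists of both proteins were longer, with 37973 against 15214 RAD21 entries and 34061 against 14139 PDS5A entries.

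IgG overlap ran in the same order as cohesin overlap. IgG entries of treated WT cells met 10.7% of gained peaks without an untreated entry, 38.2% of gained peaks with one and 54.0% of kept peaks, and IgG entries of untreated WT cells met 0.278%, 4.87% and 10.1%. Whether nonspecific cleavage contributes to the overlap of H3K27Ac with cohesin was not tested. Gained peaks without an untreated entry were the class of the treated list with the smallest share on IgG.

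**Figure D3:**
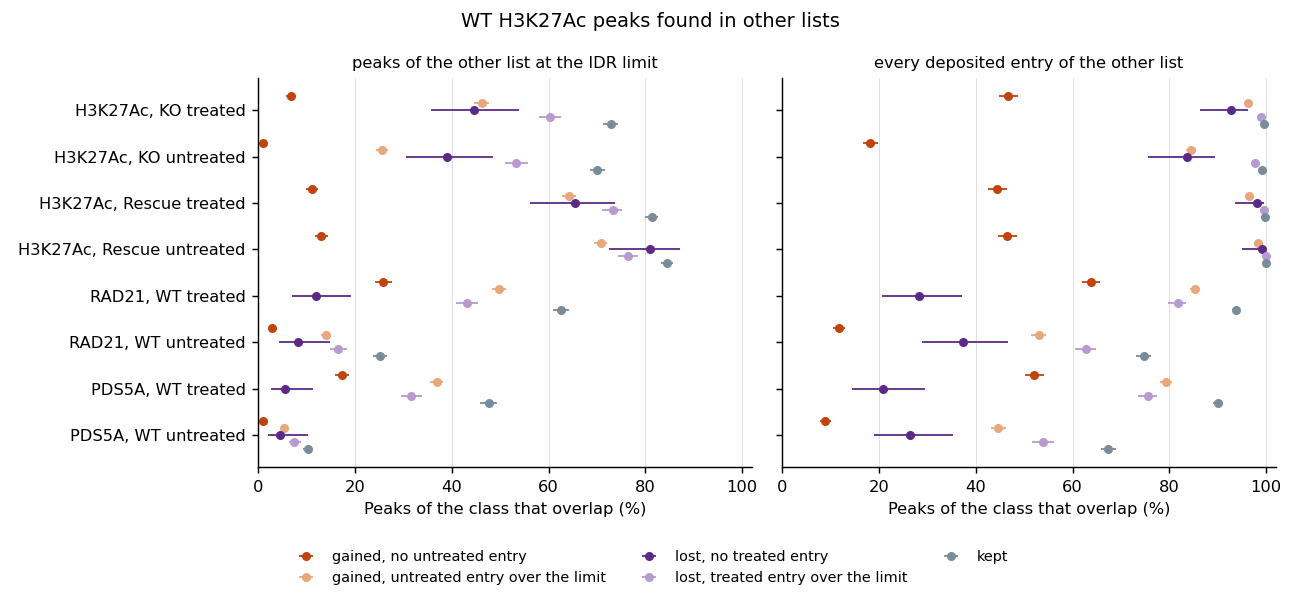
Share of peaks in each WT H3K27Ac class (x axis, percent, with 95% Wilson intervals) that overlap another list (rows, treated above untreated), using peaks of the other list at the IDR limit on the left and all its entries on the right. Gained peaks without an untreated entry lie furthest left in the KO and Rescue lists, at 6.72% and 11.1% for the treated ones at the limit, while lost peaks without a treated entry lie at 44.5% and 65.5%.

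Close neighbours of any class were slightly more frequent for gained than for kept peaks. A neighbour of the same list within 12.5 kb was found for 35.9% of gained and 32.5% of kept peaks in treated cells, a difference of 3.39 percentage points (1.39 to 5.36), and for 27.3% of lost and 21.2% of kept peaks in untreated cells. Over every deposited entry the difference in treated cells was −0.0400 points. Joining peaks within 12.5 kb gave 1448 groups of 2 or more peaks in treated and 517 in untreated cells. Of these, 703 treated groups (48.5%) and 96 untreated groups (18.6%) held no kept peak, in lists of which 68.4% and 36.9% of peaks were not kept. The latter shares count single peaks, whereas a group held no kept peak only when every member was gained or lost. The shares of groups and of single peaks are therefore not on a shared basis. Groups of 5 or more numbered 47 in treated and 9 in untreated cells. The nearest treated peak was itself a gained peak without an untreated entry for 40.4% (38.5 to 42.3) of that class, for 21.8% of gained peaks with an untreated entry and for 18.4% (17.1 to 19.8) of kept peaks, against 25.4% over all treated peaks.

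Uninterrupted stretches of treated peaks without an untreated entry reached a length of 15. Among treated peaks in genome order, this class formed 1594 stretches, of which 38 held 5 or more. The longest, on chromosome 2 from 121347200 to 122392867, had 15 such peaks with a median lower −log10 p of 19.8, and the deposited entries there numbered 52 in treated and 1 in untreated WT cells. In that stretch KO entries numbered 29 and 2, Rescue entries 16 and 6, and WT IgG entries 6 and 0. The next, with 11 peaks, spanned 103.4 kb of chromosome 5 from 14160821 to 14264205, where WT entries numbered 32 with and 3 without treatment, KO entries 21 and 2, and Rescue entries 9 and 12, with no IgG entry in WT cells of either treatment. A stretch of 9 on chromosome 7 from 116209813 to 116441776 had 32 treated and 2 untreated WT entries, 1 and 1 KO entries, and 2 and 2 Rescue entries. The stretches on chromosomes 5 and 2 were thus also richer in treated than in untreated KO cells, and the stretch on chromosome 7 was not. These stretches were picked for their length, so their counts describe them and test nothing.

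The 1 Mb window with the most gained peaks was the 14 to 15 Mb stretch of chromosome 5, with 29 treated and 4 untreated peaks, of which 27 were gained and 23 had no untreated entry. All deposited entries there numbered 143 in treated and 15 in untreated WT cells. RAD21 entries numbered 28 in treated and 6 in untreated WT cells, PDS5A entries 22 and 9, and IgG entries 11 and 1. Over whole chromosomes the ratio of treated to untreated entries was 1.44 to 2.77 for H3K27Ac and 1.86 to 3.23 for RAD21. Of the other 7 windows with most gained peaks, those on chromosomes 2 (121 to 122 Mb) and 7 (116 to 117 Mb) had 13 gained peaks each without an untreated entry. Their deposited entries numbered 58 in treated and 13 in untreated WT cells on chromosome 2, and 80 and 10 on chromosome 7. In the window of chromosome 17 between 79 and 80 Mb, by contrast, 2 of 22 gained peaks had no untreated entry, and entries numbered 79 in treated and 66 in untreated cells. The other 20 gained peaks stood at untreated entries over the IDR limit.

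**Figure D4:**
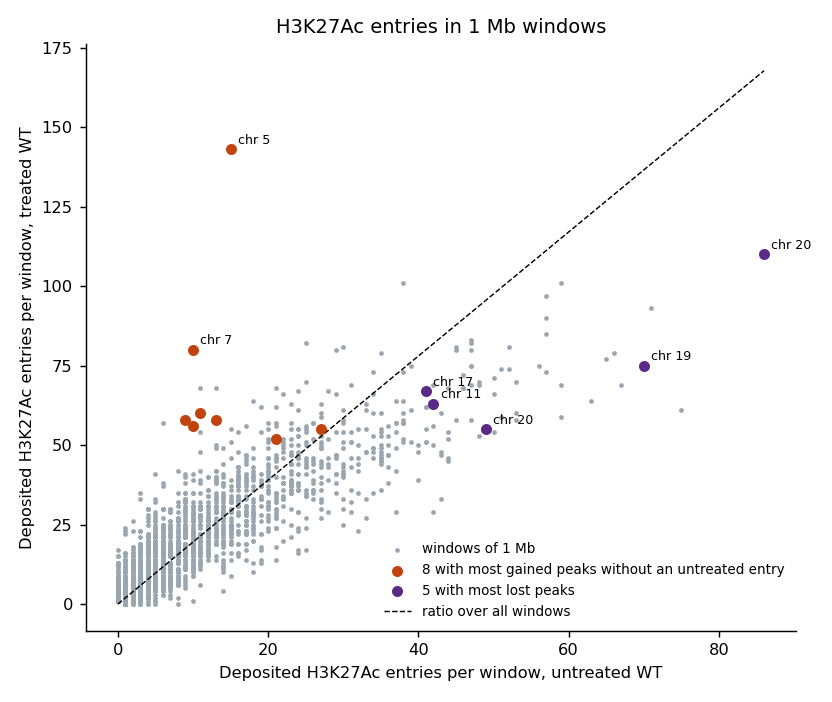
Deposited H3K27Ac entries per 1 Mb window in treated WT (y axis) against untreated WT (x axis), each point being 1 window, larger points the 8 with most gained peaks without an untreated entry (picked after values were seen) and the 5 with most lost peaks, and the dashed line the ratio over all autosomal entries, 1.95. The window of chromosome 5 stands at 143 treated against 15 untreated entries and that of chromosome 7 at 80 against 10, while the 5 windows with most lost peaks lie below the line.

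Most windows had more treated than untreated peaks. Of 1940 windows of 1 Mb with a peak, 1486 had more treated than untreated peaks, 243 had fewer and 211 had equal numbers, which are net counts and do not show how many windows lost a peak. Over wider windows of 5 Mb with at least 50 deposited entries, 5 of 403 had fewer treated than untreated entries, and the median ratio was 2.05. The highest ratios were 8.50 on chromosome 6 from 55 to 60 Mb, with 68 treated and 8 untreated entries, and 8.43 on chromosome 6 from 130 to 135 Mb, with 59 treated and 7 untreated entries. IgG entries in them numbered 6 and 5 in treated and 1 and 0 in untreated cells. The lowest ratio was 0.878 on chromosome 14 from 90 to 95 Mb, with 43 treated and 49 untreated entries. KO cells had 85 treated and 37 untreated entries there, and Rescue cells 101 and 84.

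The 1863 lost peaks formed 1097 uninterrupted stretches among untreated peaks, and 255 of them lay in stretches of 5 or more. For lost peaks with a treated entry, the nearest untreated peak was of the same class in 40.2%. The nearest peak was of that class for 32.5% of kept and 35.4% of all untreated peaks. The most lost peaks in 1 Mb, 17 of 30, lay on chromosome 20 between 48 and 49 Mb, where treated cells had 30 peaks of which 16 were gained. Between 52 and 53 Mb of the same chromosome, treated cells had 11 and untreated cells 16 peaks, and 10 untreated peaks were lost. Deposited entries there numbered 55 in treated and 49 in untreated cells. The longest uninterrupted stretch of lost peaks held 11, on chromosome 14 from 93798429 to 102276860, with 15 treated and 35 untreated entries in WT cells. In the same stretch KO cells had 98 treated and 57 untreated entries, and Rescue cells 119 and 89. A stretch of 9 lost peaks on chromosome 10 from 104403337 to 105519899 held no treated peak, with 27 treated and 32 untreated entries in WT cells.

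The ratio of treated to untreated peaks varied between chromosomes. It was highest on chromosomes 3 and 4, at 2.72 and 2.70, and lowest on chromosomes 20 and 14, at 1.33 and 1.39. Over every deposited entry chromosome 6 had the highest ratio, 2.77 (2547 treated and 919 untreated entries), and chromosome 20 the lowest, 1.44 (1553 and 1081). RAD21 entries had a ratio of 3.06 on chromosome 6 and 1.86 on chromosome 20. The IgG ratio was 14.3 on chromosome 6 and 3.97 on chromosome 20. Peaks without an untreated entry made up 36.1% (32.2 to 40.1) of treated peaks on chromosome 5 and 16.4% (13.0 to 20.5) on chromosome 16. The part of the IgG difference in these ratios was not tested.

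**Figure D5:**
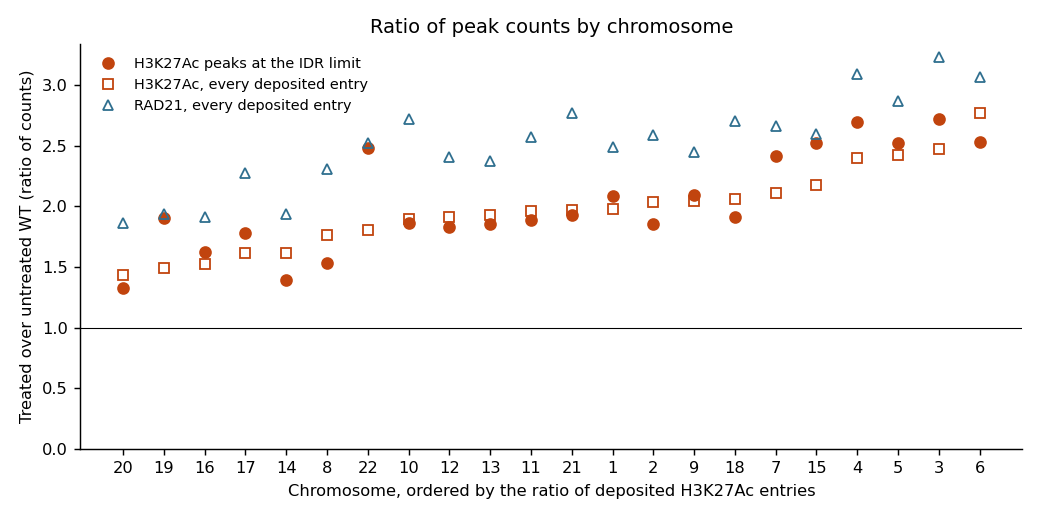
Ratio of treated to untreated counts in WT cells (y axis) for each chromosome (x axis, ordered by the ratio of deposited H3K27Ac entries), for H3K27Ac peaks at the limit, all H3K27Ac entries and all RAD21 entries. All ratios are above 1, and H3K27Ac entries run from 1.44 on chromosome 20 to 2.77 on chromosome 6.

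All 10 of the peaks named for their width, 5 in each list, met an IgG entry of some list. The widest treated peak, on chromosome 7 from 100757107 to 100772442, spanned 15336 bp, with −log10 p values of 16.5 and 29.1 in the 2 treated replicates. Of the 5 widest treated peaks 4 were kept. The remaining peak, 11262 bp on chromosome 5 from 33850058 to 33861319, had 23.3 and 49.1 in treated replicates and no untreated entry, carried RAD21 and PDS5A peaks in treated cells, and had no H3K27Ac entry in KO or Rescue cells. The widest untreated peak, 12361 bp on chromosome 20 from 43965118 to 43977478, had 22.5 and 36.8 in untreated replicates and was kept. Of the 5 widest untreated peaks 1 was lost, on chromosome 17 from 48132294 to 48143034, where a treated entry over the limit remained.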

How the data were processed

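Peak lists of H3K27Ac CUT&RUN in treated and untreated WT PC9 cells were compared, beside 14 further lists (RAD21, PDS5A and IgG of WT cells, and H3K27Ac and IgG of KO and Rescue cells). Per the submitters' processing notes, the build is GRCh37 and the authors' tools include MACS2 2.2.7.1, Bowtie2 2.4.2 and Trimmomatic. FastQC, deepTools 3.5.1, bedtools 2.30 and SAMtools 1.16 are also named, all without role or order. The peak threshold, the control and the IDR version are not given in the sources used here. The deposited values are a −log10 p for either replicate, with a minimum of 3 over the entries used, and the −log10 of the global IDR. A limit of 1.301 stands for an IDR of 0.05. The labels planned 20 M paired-end reads per library, but the lists carry no totals, so depth is unknown.

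Computed here were overlaps of 1 bp or more, gaps, groups joined within 12500 bp, windows of 1 Mb by peak midpoint, and the rank percentile of the lower replicate −log10 p within a list. Shares carry 95% Wilson intervals and differences of shares Newcombe intervals. Tables were made with pandas 2.3.3 and numpy 2.4.6 under Python 3.11.15, figures with matplotlib 3.10.9 and intervals with scipy 1.17.1; the overlap and gap code was tested on simulated data. Peaks on chromosome X (723 treated and 380 untreated entries) and mitochondrial ones (8 and 3) were left out. No GRCh37 genome or annotation was used here, so no gene or sequence is given. The RAD21 and PDS5A lists of KO and Rescue cells were not used here, and the H2A samples were not analysed here.

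The peaks compared and the choices below were made with earlier results of these data known. Peaks named by position were the 8 strongest gained and 8 strongest lost that met no entry of the other H3K27Ac list and no IgG entry of any list, the 5 strongest kept, the 5 kept peaks that climbed most and the 5 that dropped most in list rank, the 5 widest of each list, and the windows with the most gained (8) and most lost (5) peaks. The stretches, 5 Mb windows and chromosomes named were chosen after their values were seen, as was the split by presence of an entry in the other list for windows. The alternatives were every deposited entry, an IDR of 0.01 or less, peaks on a WT IgG entry left out, lists of equal length, the boundaries and values of each replicate alone, 50% overlap, joining within 5000 bp, chromosome X added and windows of 5 Mb.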

Additional observations from a re-analysis of the deposited data

Results flagged for a closer look

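The change in the number of H3K27Ac peaks had opposite signs in WT and Rescue cells, and the difference was not tested, since each group has 1 list. WT cells had 10077 treated and 5045 untreated peaks, and Rescue cells 12991 treated and 14177 untreated peaks, a difference of -1186. Over every deposited entry Rescue cells had more in the treated list, 44401 against 38691. KO cells had 8383 treated and 5420 untreated peaks, the same sign as WT cells. The same opposite signs occurred in 4 of the 8 windows with most gained peaks. All 8 windows were picked for the gain in WT cells, so only the Rescue sign was free to vary. In the remaining windows Rescue cells had as many treated as untreated peaks or more. They had 7 treated and 6 untreated peaks on chromosome 5 (14 to 15 Mb) and 30 and 28 on chromosome 17 (79 to 80 Mb). On chromosome 22 (39 to 40 Mb) they had 23 and 23, and on chromosome 7 (116 to 117 Mb) 4 and 4. On chromosome 11 (65 to 66 Mb) WT cells had 35 treated and 23 untreated peaks, and Rescue cells 42 and 44, a difference of -2. For chromosome 2 (121 to 122 Mb) the counts were 22 and 3 in WT and 11 and 12 in Rescue cells, a difference of -1. For chromosome 22 (36 to 37 Mb) they were 22 and 3 in WT and 14 and 25 in Rescue cells, a difference of -11. For chromosome 17 (42 to 43 Mb) they were 23 and 6 in WT and 20 and 22 in Rescue cells, a difference of -2. Over every deposited entry, Rescue cells had 126 treated and 100 untreated entries in the window of chromosome 11. The Rescue entries numbered 35 and 19 on chromosome 2, 61 and 62 on chromosome 22, and 63 and 49 on chromosome 17.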

How the results depend on the processing

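The ratio of treated to untreated peak counts, 2.0, was 1.95 over every deposited entry, 1.41 at an IDR of 0.01, 2.41 without peaks on IgG and 2.0 with chromosome X; no alternative moved it by over 1.5 times. The share of treated peaks gained, 68.4%, was 57.7% over every entry, 77.9% without peaks on IgG and 56.4% with lists of equal length. The share of untreated peaks lost, 36.9%, was 15.7%, 47.0% and 56.1% under the same settings and 55.1% at an IDR of 0.01, and with lists of equal length the gained and lost shares are bound to be nearly equal. Gained peaks without an untreated entry, 25.0%, became 12.4% at an IDR of 0.01, 35.5% without peaks on IgG and 15.7% with equal lengths. Lost peaks without a treated entry, 2.18%, became 1.34% at an IDR of 0.01 and 3.88% without peaks on IgG. They stayed at 2.18% with equal lengths, where the deposited entries looked up were not shortened. Alternatives for these shares were chosen after seeing the data. Over every entry, at an IDR of 0.01, without peaks on IgG and with equal lengths, the share of gained peaks narrower than the median kept peak (66.4%) was 85.4%, 58.5%, 65.2% and 60.2%, the share ranked below it (76.3%) was 83.4%, 70.3%, 73.5% and 65.8%, and the difference in RAD21 overlap (-21.5 points) was -28.2, -7.89, -19.1 and -15.1 points. The difference in close neighbours, 3.39 points, turned to -0.0400 over every entry. The window with most gained peaks held 27, against 132 over every entry and 45 in windows of 5 Mb. The cause of these changes was not tested, apart from equal lengths, where the treated list is shortened to the length of the untreated one.

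With the boundaries and values of either replicate alone, for peaks still chosen by the joint IDR of both, which leaves the count ratio fixed, the shares ranged from 68.4% to 68.4% gained, 36.9% to 37.0% lost, 65.8% to 67.5% narrower and 73.5% to 75.1% ranked lower, the neighbour difference from 3.31 to 3.53 points and the RAD21 difference from -21.5 to -21.5 points. No paired analysis was possible because both replicates of a group are joined in 1 list and no test was run. Alternatives for sequence windows and gene lists were not run, since no GRCh37 genome or annotation was used here. Depth per library is unknown, peaks matched between replicates only are listed, and an entry missing from a list may lie below the authors' threshold.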
